A study of Mus musculus with 2 samples.

Results

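Endothelial cell genes were followed in RNA of cultured mouse ureters. The set holds 37 names of pan-endothelial, capillary and venous markers, and a gene was taken where a gene spot on the arrays carried exactly that name. Of these, 36 genes had spots, out of 30011 genes on the array, with 46 probes in 184 spots on each array. The name Robo4x, as listed, matched no spot. Of the 36 genes, 35 passed the filter on dim signals and were tested. Flt4, the receptor for the lymphatic growth factors VEGF-C and VEGF-D, was not well above background in any of the 4 RNA channels and was left out of the tests.

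The mutant ureters were Tbx18(cre/+) with both copies of Fgfr1 and of Fgfr2 floxed (fl/fl) and are called Fgfr1/2cDKO. The control ureters carried Fgfr1(fl/?) and Fgfr2(fl/?), with no Cre allele listed. All were NMRI mice, dissected at E15.5 and cultured on membranes for 6 days. Cre from the Tbx18 locus deletes the floxed receptor genes in the mesenchyme around the ureteric epithelium and in its descendants. As no Cre is listed for the controls, loss of the receptors cannot be told apart here from Cre at that locus. Each of the 2 arrays held 1 mutant and 1 control RNA in opposite dyes. Array 1 was labelled male with the mutant in Cy5, and array 2 was labelled female with the mutant in Cy3, so replicate, sex and dye cannot be told apart. The number of embryos per RNA sample and whether the replicates came from separate litters are not stated in the labels. The p-values therefore rest on differences among these samples alone. The spread they use is mostly pooled over genes (7.45 prior and 1 residual degrees of freedom) and may be technical. A gene's own SD thus has little weight in its p-value unless that SD is large.

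Endothelial cells line blood and lymph vessels. They are held together by VE-cadherin (Cdh5) and related adhesion proteins, and their growth is driven by VEGF receptors and stabilised by the angiopoietin receptor TIE2. Their identity depends on transcription factors of the ETS, SOXF and GATA families. In the ureter, blood vessels run in the connective tissue on either side of the muscle coat.

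The samples carried the transcripts of their labelled tissue. The urothelial genes Upk2 and Krt5 and the smooth muscle genes Acta2 and Myh11 were well above background in both genotypes, as were the defining endothelial genes Pecam1 and Cdh5. In the 4 RNA channels, 70.3% to 78.3% of gene spots stood well above background. The number of arrays, 2, limits the precision. Signals are normalised intensities in arbitrary units. They include an offset of 50 units, which shrinks the ratio of a dim probe. A ratio is log2 of mutant over control, averaged over the arrays with its SD (n = 2), and a gene passed at an adjusted p below 0.05 in limma over all 22070 genes tested.

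Some of the endothelial genes were lower in the mutant ureters, from all classes but the adaptors and the adrenomedullin receptor. Of 35 tested members, 14 fell, 0 rose and 21 did not pass. Over all genes tested, 3.79% passed, of which the lower ones made up 2.03% and the higher ones 1.76% of the genes. The 14 that fell were Icam2, Esm1, Gpihbp1, Apln, Sox7, Cdh5, Esam, Emcn, Lmo2, Ptprb, Nos3, Cd93, Tek and Tie1, with log2 ratios from -0.997 to -0.487. All 14 lay within the lowest 3% of ratios among the genes tested, which largely follows from their selection on the same ratios. The members' median ratio was -0.35 (array 1, -0.43; array 2, -0.26), against -0.02 over all genes. In bulk RNA, fewer endothelial cells and less RNA of these genes per cell cannot be told apart. The call depended on the scaling and on the model fitted. In limma 0 members passed with median centring in place of loess, where 22 of 35 were lower at an unadjusted p below 0.05, against 22.5% of all genes. Likewise 0 passed with the processed signals of the scanner software (20 of 35, against 10.8%) and 0 with separate channels and no array as block (16 of 35, against 5.03%). The separate-channel fit with the array as block called 9 as lower, against 0.526% of all genes. The same test on the authors' deposited table called 5, against 0.412%: 4 of the 14, and Clec14a. All 14 stayed below 0 in each of these fits, though the separate-channel fits keep the same ratios, so no sign could change there.

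Direction varied among the members. The ratio was below 0 on both arrays for 23 of 35 members, against 36.0% of all genes, above 0 on both for 4, against 30.5%, and of opposite signs for 8, against 33.5%. Both mutant signals lay below both control signals for 21 members, against 23.5% of all genes, and above both for 3, against 21.5%. Aplnr and Erg passed the filter through the control RNA alone, and both had ratios close to 0. The other 33 were well above background in both genotypes.

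**Figure D1:**
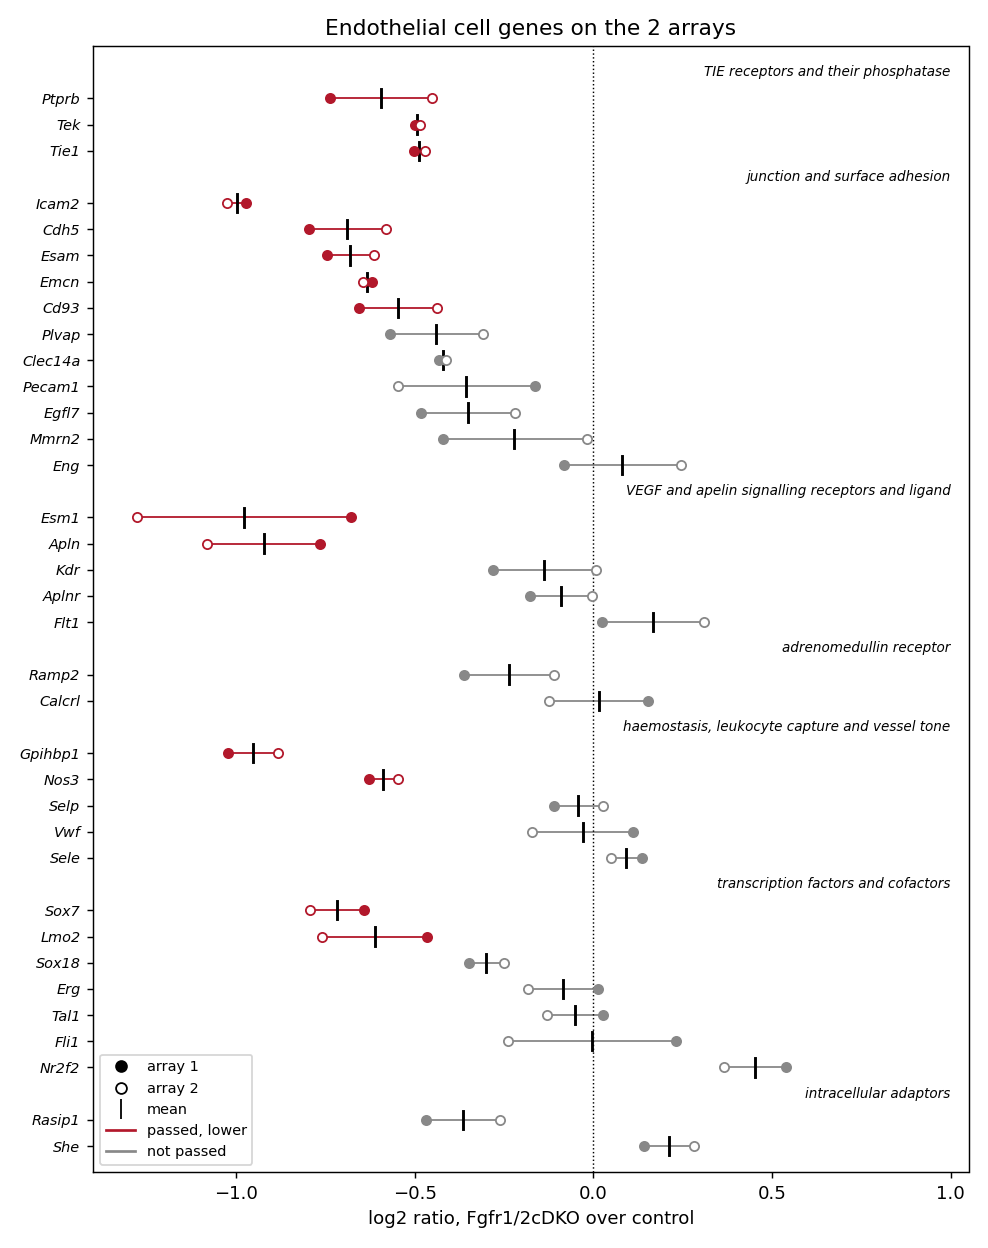
Log2 ratio of Fgfr1/2cDKO over control (horizontal axis) for the 35 tested endothelial genes, grouped by role, on array 1 (filled) and array 2 (open), with the mean as a black bar. Genes that passed are in red. The 14 red genes lie left of 0 on both arrays, and Nr2f2, at 0.45, lies farthest to the right.

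**Figure D2:**
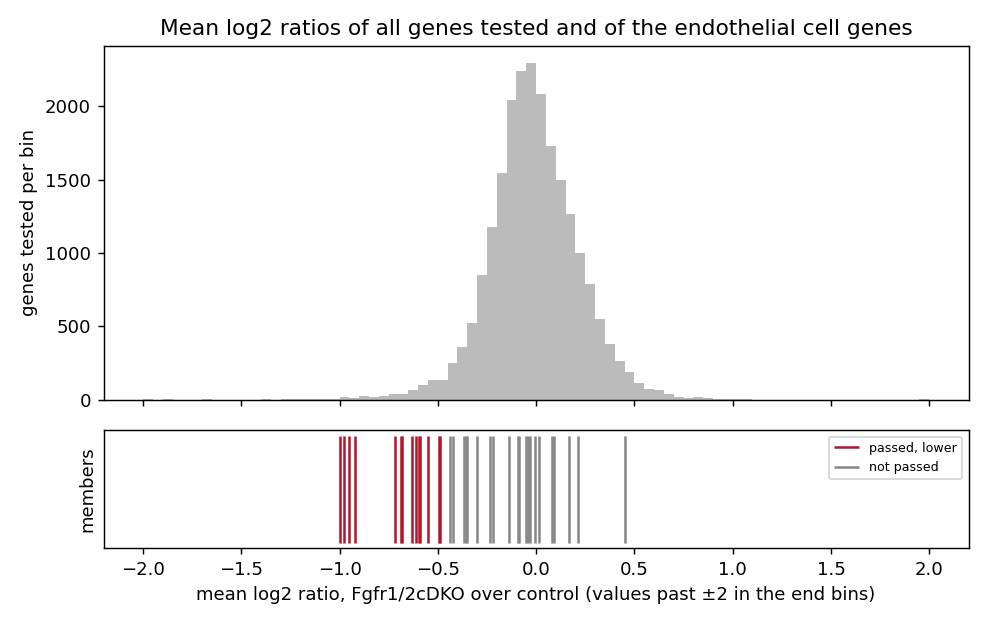
Mean log2 ratios of all 22070 genes tested (upper panel, genes per bin of 0.05) and of the 35 endothelial genes (lower panel, 1 line per gene; red, passed). The members' median of -0.35 lies left of the median of all genes, -0.02.

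Promoters were read for members that moved together, since ETS and GATA factors are known regulators of endothelial genes. The RefSeq promoter table of build GRCm38.p6 matched 19 of the members, 5 of them among the 14 that fell. Shown are the 250 bases before the start of those 5, 5′ to 3′ on the gene's strand, with motif matches in capitals. The motifs were AGGAAG and CGGAAG, which hold the core of ETS sites, and the letters AGATAA, bound by GATA factors, each searched on both strands, and none overlaps another in these windows. They are Esm1 (+ strand, chr13:113209409-113209658), Apln (- strand, chrX:48034854-48035103), Emcn (+ strand, chr3:137340828-137341077), Tek (+ strand, chr4:94739039-94739288) and Tie1 (- strand, chr4:118489850-118490099).
Esm1: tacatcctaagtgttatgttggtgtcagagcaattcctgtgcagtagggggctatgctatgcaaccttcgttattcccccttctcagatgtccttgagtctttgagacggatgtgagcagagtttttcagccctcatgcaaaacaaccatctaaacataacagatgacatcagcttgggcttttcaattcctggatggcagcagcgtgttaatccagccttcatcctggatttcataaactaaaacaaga
Apln: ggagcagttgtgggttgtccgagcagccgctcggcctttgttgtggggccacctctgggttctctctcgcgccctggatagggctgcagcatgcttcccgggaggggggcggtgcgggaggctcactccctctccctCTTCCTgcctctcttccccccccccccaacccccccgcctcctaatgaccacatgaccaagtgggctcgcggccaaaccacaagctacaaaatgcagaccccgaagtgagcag
Emcn: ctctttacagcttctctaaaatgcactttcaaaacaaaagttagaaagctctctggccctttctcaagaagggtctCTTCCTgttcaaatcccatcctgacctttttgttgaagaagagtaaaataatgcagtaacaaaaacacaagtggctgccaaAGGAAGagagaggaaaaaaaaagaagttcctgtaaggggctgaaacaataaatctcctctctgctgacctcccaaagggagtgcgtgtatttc
Tek: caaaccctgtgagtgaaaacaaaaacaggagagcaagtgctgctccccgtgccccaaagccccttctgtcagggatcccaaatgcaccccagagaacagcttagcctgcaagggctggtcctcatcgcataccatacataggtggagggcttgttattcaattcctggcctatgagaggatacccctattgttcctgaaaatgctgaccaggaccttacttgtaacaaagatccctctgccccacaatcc
Tie1: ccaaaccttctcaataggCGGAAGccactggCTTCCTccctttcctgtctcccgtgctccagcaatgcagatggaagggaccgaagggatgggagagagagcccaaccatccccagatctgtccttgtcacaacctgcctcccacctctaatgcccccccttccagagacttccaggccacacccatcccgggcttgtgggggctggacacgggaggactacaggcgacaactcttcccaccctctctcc

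AGGAAG or CGGAAG lay in 3 of these 5 windows, with 2 matches each in Emcn and Tie1 and 1 in Apln. The share was 39.2% of 32851 windows of the same length in the table. Over all members in the table, 14 of 24 windows held such a motif, as some genes have several starts. The shorter ETS core alone was not searched, so a window without a match may still hold it. The GATA letters lay in 0 of the 5 windows and in 2 of the 24, against 9.99% of all windows. These counts describe letters in short windows and were not tested.

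The TIE receptors and their phosphatase fell for 3 of 3 genes, against 2.03% of all genes tested. Tek encodes TIE2, the receptor for angiopoietins. Its signals were 356.5 and 343.1 in the mutant RNAs, against 504.2 and 480.6 in the control RNAs, a ratio of -0.49 ± 0.01 (SD, n = 2; limma adjusted p = 0.0437). Tie1, an orphan receptor that modulates TIE2 and whose promoter window held 2 matches to the ETS motifs searched, gave 196.0 in both mutant RNAs, against 277.7 and 271.9 in the controls (-0.49 ± 0.02; adjusted p = 0.0452). Ptprb, the vascular phosphatase VE-PTP that acts on TIE2 and VE-cadherin, gave 764.0 and 898.5, against 1273.4 and 1228.5 (-0.59 ± 0.20; adjusted p = 0.0351). Both mutant signals of each gene lay below both control signals, against 23.5% of all genes tested. That largely follows from their selection on the same ratios. The 3 calls did not hold in all fits. With the authors' deposited table, limma gave adjusted p = 0.0810 for Tek, 0.0543 for Tie1 and 0.0796 for Ptprb. The separate-channel fit in limma with the array as block gave adjusted p = 0.0644, 0.0645 and 0.0580.

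Among genes of junctions and of the endothelial surface, 5 of 11 fell, against 2.03% of all genes tested. Icam2, an adhesion ligand for leukocyte integrins, had the lowest ratio of all members. Its signals were 2425.1 and 2288.4 in the mutants, against 4752.2 and 4652.7 in the controls, 0.501 of the control level (-0.997 ± 0.038; adjusted p = 0.00986). Cdh5, which encodes the cadherin of endothelial junctions, gave 869.2 and 949.6, against 1508.7 and 1420.1 (-0.69 ± 0.15; adjusted p = 0.0228). Esam, an adhesion molecule of the same junctions, gave 654.4 and 708.5, against 1097.2 and 1085.0 (-0.68 ± 0.09; adjusted p = 0.0218). Emcn is a sialomucin that marks capillaries and veins. It gave 310.4 and 275.0, against 477.0 and 430.1 (-0.63 ± 0.02; adjusted p = 0.0233). Cd93, a receptor of the vessel wall that monocytes also carry, gave 11874.0 and 11469.5, against 18729.2 and 15536.8 (-0.55 ± 0.16; adjusted p = 0.0391). In all 5 both mutant signals lay below both control signals, against 23.5% of all genes tested. This largely follows from their selection on the same ratios.

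The other 6 surface genes did not pass. Pecam1, the general endothelial marker CD31, gave 487.7 and 355.1 in the mutants, against 545.5 and 518.9 in the controls. The groups did not overlap, but the ratio was -0.16 on array 1 and -0.55 on array 2 (adjusted p = 0.145). Plvap, which forms the diaphragms of fenestrated capillaries, had -0.44 ± 0.18 (adjusted p = 0.0720), and Clec14a, a surface lectin of angiogenic vessels, had -0.42 ± 0.01 (adjusted p = 0.0643). Clec14a passed as lower with the authors' deposited table (adjusted p = 0.0498), the mean over probes (adjusted p = 0.0494) and an intensity trend (adjusted p = 0.0201), and Plvap with an intensity trend (adjusted p = 0.0489). Egfl7, a factor secreted by endothelial cells, had -0.35 ± 0.19, and Mmrn2, a matrix ligand of CLEC14A and CD93, had -0.22 ± 0.29. Eng, the TGF-beta co-receptor endoglin, had 0.08 ± 0.23 with opposite signs on the arrays.

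**Figure D3:**
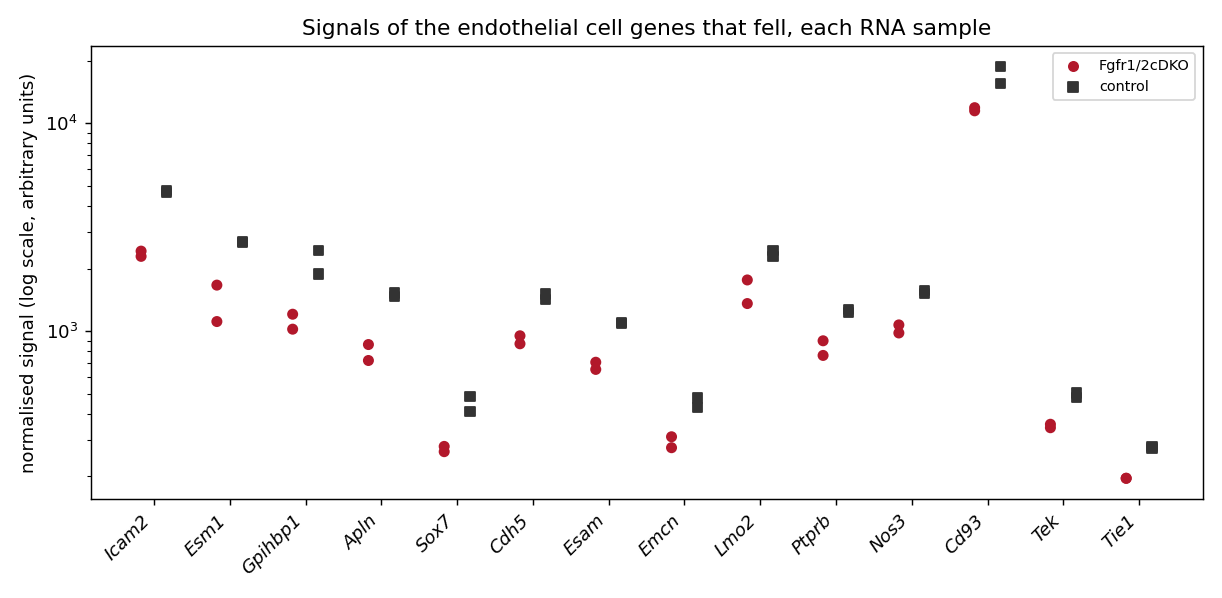
Normalised signal (log scale, arbitrary units) of the 14 endothelial genes that fell, in each of the 2 Fgfr1/2cDKO RNAs (red circles) and the 2 control RNAs (black squares). For each gene both mutant points lie below both control points, against 23.5% of all genes tested, and the 14 were picked by these ratios. Levels are not comparable between genes, which have different probes.

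In the VEGF and apelin group, 2 of 5 tested genes fell, against 2.03% of all genes tested, and both encode secreted proteins. Esm1 encodes endocan, a proteoglycan made by tip cells of growing vessels. Its signals were 1664.3 and 1111.8 in the mutants, against 2661.8 and 2695.0 in the controls (-0.98 ± 0.42; adjusted p = 0.0196), with -0.68 on array 1 and -1.28 on array 2. Apln, the ligand apelin, gave 861.9 and 722.3, against 1463.7 and 1526.6 (-0.92 ± 0.22; adjusted p = 0.0147). Its receptor gene Aplnr gave 98.3 and 121.2, against 111.2 and 121.5, close to background, with overlapping groups (-0.09 ± 0.12; adjusted p = 0.667).

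The VEGF receptor genes did not pass by their brightest probes, and for them the probe mattered. Kdr encodes VEGFR2, the main signalling receptor for VEGF-A. Its brightest probe, at 76330395 to 76330454 on chromosome 5 (mm9), gave 1197.0 and 1147.8 in the mutants, against 1454.8 and 1142.5 in the controls (-0.14 ± 0.20; adjusted p = 0.518). The second Kdr probe, at 76329309 to 76329368, gave 901.3 and 928.9, against 1418.6 and 1237.0 (-0.53 ± 0.17), without overlap. Flt1 encodes VEGFR1, which binds VEGF-A and is also made as a soluble decoy. Its brightest probe, at 148373791 to 148373850 on chromosome 5, gave 2113.6 and 2586.4, against 2079.4 and 2087.9 (0.17 ± 0.20; adjusted p = 0.431). The next Flt1 probe, at 148446872 to 148446931, gave 305.4 and 275.9, against 402.3 and 412.1 (-0.49 ± 0.13), so the 2 Flt1 probes differed in sign on both arrays. The remaining Flt1 probe was not well above background. When every probe was fitted on its own, with p adjusted over 28915 probes, the second probes of Kdr (adjusted p = 0.0271) and Flt1 (adjusted p = 0.0329) passed.

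Of the other genes with more than 1 tested probe, Nos3 had both probes past the threshold in that fit, with ratios of -0.59 and -0.45. The other Ptprb probes had ratios of -0.21 and -0.24 and did not pass, so its call rests on the brightest of 3 probes, and it did not pass with the mean over probes. The second probes of Plvap and Vwf had -0.21 and -0.09. In all, 42 probes of members were tested in that fit. Of these, 18 probes of 17 genes passed as lower, against 2.57% of all probes, and 1 probe, that of Nr2f2, passed as higher, against 2.52%.

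**Figure D4:**
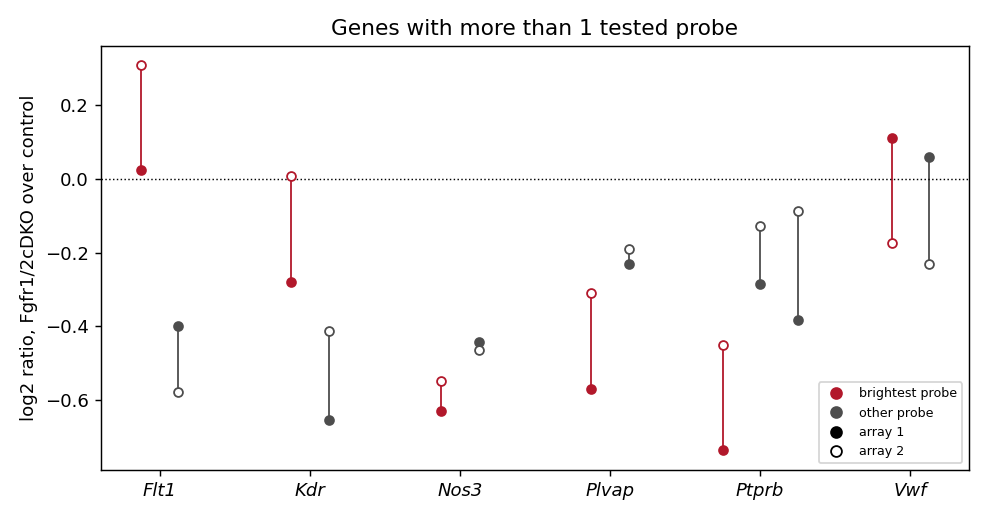
Log2 ratio of Fgfr1/2cDKO over control (vertical axis) for the 6 endothelial genes with more than 1 tested probe, on array 1 (filled) and array 2 (open). The brightest probe of each gene is in red. The Flt1 probes lie on opposite sides of 0, while both Nos3 probes lie below -0.44 on both arrays.

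The adrenomedullin receptor genes did not change at the threshold. Ramp2, the accessory protein, gave 2674.6 and 3090.4 in the mutants, against 3440.0 and 3335.4 in the controls, without overlap (-0.24 ± 0.18; adjusted p = 0.258). Calcrl, the receptor it works with, gave 206.5 and 199.0, against 185.6 and 216.9, with overlap (0.02 ± 0.20; adjusted p = 0.954).

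Of genes for haemostasis, leukocyte capture and vessel tone, 2 of 5 fell, against 2.03% of all genes tested. Gpihbp1 anchors lipoprotein lipase on capillaries. Its signals were 1205.8 and 1021.8 in the mutants, against 2451.1 and 1883.7 in the controls (-0.95 ± 0.10; adjusted p = 0.0116). Nos3, the endothelial nitric oxide synthase, gave 979.8 and 1071.2, against 1515.7 and 1566.4 (-0.59 ± 0.06; adjusted p = 0.0271). Both genes had higher signals in each control than in either mutant, against 23.5% of all genes tested, and were picked by these ratios. The von Willebrand factor gene Vwf, stored in endothelial granules and platelets, gave 554.6 and 487.8, against 513.2 and 549.7 (-0.03 ± 0.20; adjusted p = 0.906). The selectins that capture leukocytes, Sele and Selp, had ratios of 0.09 ± 0.06 (adjusted p = 0.647) and -0.04 ± 0.10 (adjusted p = 0.851). Selp was dim, at 122.8 and 123.8 in the mutants, against 132.7 and 121.6 in the controls.

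Transcription factors were mixed, and 2 of 7 fell, against 2.03% of all genes tested. Sox7, a SOXF factor of vessel development, fell, with signals of 263.2 and 279.0 in the mutants, against 411.0 and 483.4 in the controls (-0.72 ± 0.11; adjusted p = 0.0196). The LIM-domain cofactor Lmo2, which blood progenitors also use, gave 1762.3 and 1357.0, against 2431.9 and 2294.7 (-0.61 ± 0.21; adjusted p = 0.0328). Neither gene overlapped between the genotypes, and both mutant signals lay below both controls for 23.5% of all genes tested. Sox18, the second SOXF member, gave 158.6 and 186.5, against 201.8 and 221.7, and did not pass (-0.30 ± 0.07; adjusted p = 0.150). The ETS factors Erg and Fli1 had ratios of -0.08 ± 0.14 (adjusted p = 0.691) and -0.005 ± 0.333 (adjusted p = 0.989), each with opposite signs on the arrays, and Erg was near background. Tal1, the partner of LMO2, had -0.05 ± 0.11 (adjusted p = 0.822).

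Nr2f2 had the highest ratio of all members. It encodes COUP-TFII, which specifies venous identity and is also made widely in mesenchyme. Its signals were 10516.3 and 11981.4 in the mutants, against 7240.1 and 9294.9 in the controls, without overlap, and it did not pass (0.45 ± 0.12; adjusted p = 0.0591). It lay near the threshold and passed as higher in limma with probes well above background in all 4 channels (adjusted p = 0.0474), with the mean over probes (adjusted p = 0.0459) and with an intensity trend (adjusted p = 0.0368), while its adjusted p was 0.349 with median centring. In the intracellular adaptors, Rasip1, a RAS effector needed for vessel lumens, had -0.37 ± 0.15 (adjusted p = 0.107), and She had 0.21 ± 0.10 (adjusted p = 0.282).

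Among other vascular genes, those of arteries fell for 4 of 13, against 2.03% of all genes, with a median of -0.24. Below 0 on both arrays were 10 of 13, against 36.0% of all genes. The gap junction genes Gja5 and Gja4 had ratios of -1.08 ± 0.03 (adjusted p = 0.00745) and -0.92 ± 0.48 (adjusted p = 0.0247). Sox17, the remaining SOXF gene, had -0.61 ± 0.17 (adjusted p = 0.0294). Notch4, a Notch receptor of endothelial cells, had -0.54 ± 0.14 (adjusted p = 0.0403) and was named after its value was seen. Of 10 angiogenic ligand genes, 0 passed in limma, and the median was -0.03. The lowest p there belonged to Vegfc, at 0.35 ± 0.12 (adjusted p = 0.109), Pgf, at -0.31 ± 0.12 (adjusted p = 0.145), and Cxcl12, at 0.18 ± 0.13 (adjusted p = 0.358). Lymphatic genes had 0 of 3 tested past the threshold, with Lyve1 at 0.17 ± 0.01 (adjusted p = 0.374), Pdpn at -0.09 ± 0.12 and Nrp2 at 0.03 ± 0.11, and the lymphatic regulator Prox1 was not well above background in either genotype.

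Pericyte and mural genes had a median of -0.04, and 2 of 10 fell, against 2.03% of all genes. These were Abcc9 at -0.51 ± 0.10 (adjusted p = 0.0437) and Mcam at -0.51 ± 0.20 (adjusted p = 0.0499), of which Mcam is also made by endothelial cells. Notch3, a Notch receptor of mural cells, had 0.23 ± 0.08 (adjusted p = 0.248). The defining pericyte genes Pdgfrb, Rgs5 and Cspg4 had ratios of -0.05 ± 0.19, 0.12 ± 0.38 and -0.04 ± 0.12 and did not pass.

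Markers of other cell types moved beside the endothelial genes, and their part in the result was not tested. For comparison, 2.03% of all genes tested passed as lower and 1.76% as higher. The summed signal of the 35 endothelial genes was 54069 and 57482 in the mutants, against 70028 and 68782 in the controls. Such sums are weighted to the brightest probes, here Cd93 and Nr2f2. The sum of the arterial list was not lower, at 22526 and 23753 in the mutants, against 22365 and 22728 in the controls. Its brightest genes, named after their values were seen, were Unc5b (0.25 ± 0.03) and Efnb2 (0.29 ± 0.24). Neither passed. Unc5b alone gave 11104.7 and 11763.8 in the mutants, against 9193.0 and 10054.7 in the controls. Of the 13 arterial genes, 10 were below 0 on both arrays. For macrophages, 4 of 11 tested genes fell (Mrc1, Fcer1g, Cd14 and C1qa, with ratios of -0.79, -0.62, -0.56 and -0.59), with sums of 104577 and 69231 in the mutants, against 132221 and 99650 in the controls. The macrophage median was lower on array 2 (-0.65) than on array 1 (-0.31), while the endothelial median was lower on array 1. Of the defining macrophage genes, C1qa passed narrowly (-0.59 ± 0.33; adjusted p = 0.0499), and Csf1r and Adgre1, which did not pass, had ratios of -0.20 ± 0.12 and -0.34 ± 0.53.

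For platelets, which also hold Vwf and Selp, 1 of 4 tested genes fell (Ppbp, -0.65 ± 0.31; adjusted p = 0.0378), with sums of 20903 and 14113 in the mutants, against 16471 and 23172 in the controls. Itga2b, a defining platelet gene, was not well above background, and Pf4 had -0.18 ± 0.79 with opposite signs. Gp1bb had -0.13 ± 0.05 and did not pass. For red blood cells 0 of 3 tested genes passed in limma, with sums of 585 and 534, against 572 and 692, and Hbb-b1 and Alas2 were not well above background. Hba-a1, Slc4a1 and Hbb-bt had -0.29 ± 0.27, -0.18 ± 0.05 and 0.11 ± 0.61. Adipocyte genes fell for 6 of 7, among them Retn, Fabp4 and Adipoq with ratios of -1.65, -1.99 and -2.15, with sums of 33956 and 10380 in the mutants, against 73165 and 60680 in the controls. Urothelial genes rose for 4 of 11 (Upk1a, Cdh1, Krt18 and Upk3b, the last named after its value was seen, with ratios of 0.97, 0.80, 0.61 and 0.55) and fell for 0 in limma, with sums of 395111 and 470764, against 280096 and 298202. Of the fixed urothelial markers, Upk1a passed as higher (adjusted p = 0.0116), while Krt5 and Upk2 did not pass and differed in sign. The basal cell keratin gene Krt5 had -0.46 ± 0.30 (adjusted p = 0.0833), below 0 on both arrays, and Upk2 had 0.43 ± 0.20 (adjusted p = 0.0792). Smooth muscle genes had a median of -0.02, with 1 of 10 lower (Ckm, a creatine kinase of striated muscle, -1.14 ± 0.22; adjusted p = 0.00986). Myocd, the coactivator of smooth muscle genes, had 0.45 ± 0.01 (adjusted p = 0.0533) and Synpo2 -0.35 ± 0.18 (adjusted p = 0.125). Over these and the vascular lists 22 of 82 tested genes passed in all, 18 lower and 4 higher. Of all genes, 2.03% passed as lower and 1.76% as higher. The 22 became 1 with processed signals, 0 with median centring and 0 with separate channels without the array as block.

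**Figure D5:**
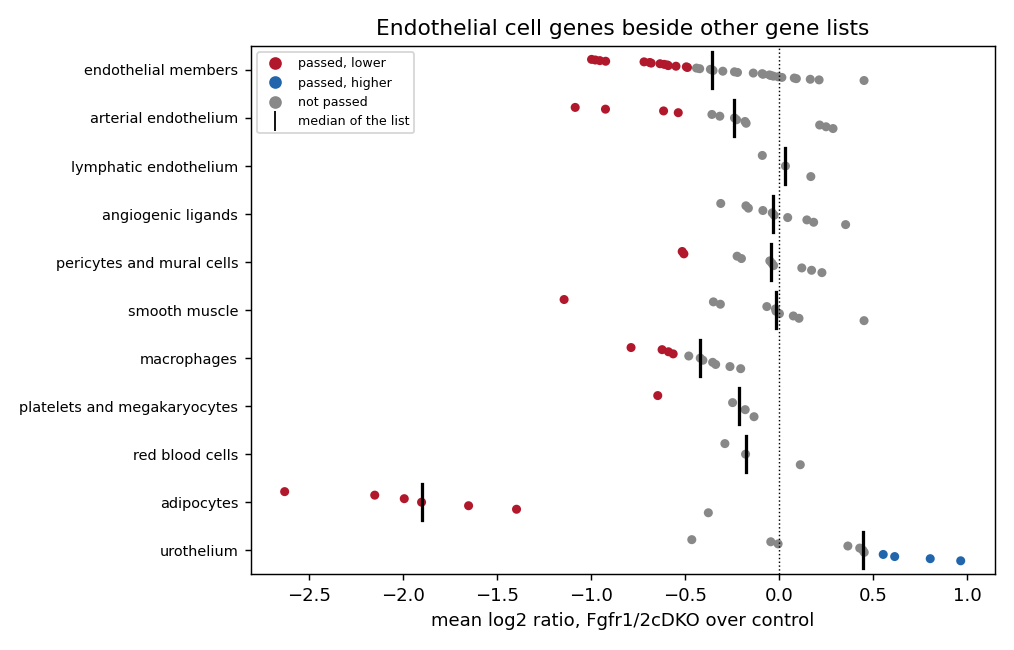
Mean log2 ratio of Fgfr1/2cDKO over control for each tested gene of the endothelial set and of 10 other lists (rows), with the median of each list as a black bar; red points passed as lower, blue points as higher and grey points did not pass. The endothelial median of -0.35 lies between that of macrophages, -0.42, and that of arterial genes, -0.24, and the adipocyte median is -1.90.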

How the data were processed

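Total RNA of cultured ureters, 150 ng per labelling per the labels, was measured on 2 two-colour Agilent arrays. The deposited files hold intensity values, mean spot and median background signals and processed signals, and the submitters' processing notes name Agilent Feature Extraction 10.7.3.1. The deposited log10 ratios are red over green, per the file headers. The values in the authors' table are signed folds, treated as a score and used on a log2 scale, which, set against the scanner ratios (r = 0.84 on array 1 and -0.85 on array 2, across probes), run as mutant over control on both. Their median is 1 on both arrays, and their averaging and centring are not given in the sources used here. Probe coordinates are mm9, per the file headers.

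Signals were background-corrected (normexp, offset 50) and loess-normalised within arrays in limma 3.58.1 (R 4.3.3), giving control spots no weight and leaving out outlier spots (3.17% and 3.65%). The 4 spots of a probe were averaged, and the brightest tested probe stood for a gene. A probe was tested if most of its spots were well above background on both arrays in 1 genotype or both, which left 28915 of 39429 probes. Non-members were named through RefSeq accessions or symbols. Ratios were tested against 0 with lmFit and eBayes (1 residual and 7.45 prior degrees of freedom), two-sided, with Benjamini-Hochberg adjustment. Each array pairs 1 mutant with 1 control RNA, so the ratio itself is the paired value. Signals per RNA came from the ratio and Aquantile-normalised averages. On 10 simulated pairs of arrays with 200 of 22070 genes changed, the test called 30.0%, 98.7% and 100% of genes changed by 0.5, 1 and 2 on the log2 scale. A median of 11.5% of calls were false. The rule names all members, the 3 genes of lowest p of other lists and fixed cell type markers. Of these, 1 gene is not reported here. Genes named after their values were seen are marked as such. The members and lists were chosen with earlier results of these data known.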

Additional observations from a re-analysis of the deposited data

Results flagged for a closer look

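The array labelled male and the array labelled female gave opposite signs for 8 endothelial genes. The difference in log2 ratio, male minus female, was -0.33 for Eng, -0.29 for Kdr, -0.14 for Selp, 0.16 for Tal1, 0.20 for Erg, 0.28 for Calcrl, 0.28 for Vwf and 0.47 for Fli1. With 1 array for each sex the difference was not tested, and sex cannot be told apart from replicate and dye. Opposite signs were found for 33.5% of all genes tested.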

How the results depend on the processing

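The median of the endothelial genes kept its sign in each alternative run. It moved by less than the SD of the 2 array medians (-0.43 and -0.26), though only just with median centring. It was between -0.47 with median centring and -0.34 with the mean over probes on both arrays, and it was -0.26 without replicate 1 and -0.43 without replicate 2. The count of members that passed, 14, was 0 with processed signals, 0 with median centring, 0 with separate channels and no replicate block, 5 with the authors' deposited table (4 of the 14, and Clec14a) and 9 with separate channels and the replicate block. It was 15 with probes above background in all 4 channels and 15 with the mean over probes (14 lower and 1 higher in each), and 17 with an intensity trend (16 lower, 1 higher). The higher gene was Nr2f2. Over all genes, 836 passed, against 10, 0, 3, 170 and 214 in the order processed signals, median centring, no replicate block, authors' table and replicate block, and 1415 with an intensity trend in the variance. Over the other lists, 22 genes passed, against 1, 0, 0, 5 and 5. Under median centring the median over all genes was -0.14, and the members' median relative to it was -0.33. The lymphatic median was -0.21 there, against 0.03, and the smooth muscle median -0.36, against -0.02. Fitting every probe on its own, added after seeing the data, gave 18 genes, counting Nr2f2 as higher. None of the 14 changed sign under any alternative run. The separate-channel fits and the intensity trend keep the ratios of the main run, so neither these signs nor the median could change there. Leaving out 1 replicate only reread the ratios of the other array, which were already below 0 for all 14. The cause of the lost calls was not tested. Dim probes limit Flt4, Erg, Aplnr and Selp, and 2 arrays limit all tests.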
